A study of Mus musculus with 24 samples.

Results

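Transcripts for the subunits of the mitochondrial respiratory chain were followed in dorsal root ganglia (DRGs) after sciatic nerve lesion. The members were all genes whose array name starts with Ndufa, Ndufb, Ndufc, Ndufs, Ndufv, Uqcr, Cox4i, Cox5, Cox6, Cox7, Cox8 or Atp5, together with *Sdha*, *Sdhb*, *Sdhc* and *Sdhd*. This gave 88 of the 27398 genes on the array and 126 of its 41174 probes. By complex there were 40 genes of complex I, 4 of complex II, 8 of complex III, 19 of complex IV and 17 of complex V. They are abundant transcripts, and 81 of the 88 were among the 6850 genes with the highest mean level, called abundant genes here. Most of them (85) were well above background in at least 12 of the 24 samples.

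The respiratory chain sits in the inner mitochondrial membrane. Complexes I and II pass electrons from NADH and succinate to ubiquinone, complex III passes them on to cytochrome c, complex IV reduces oxygen, and complex V uses the resulting proton gradient to make ATP. Core subunits carry the catalytic or redox centres, and accessory subunits surround them. Nearly all subunits are encoded in the nucleus and imported, while a small number, not chosen by the name rule, are encoded in mitochondrial DNA. Sensory neurons of the DRG have long axons and depend heavily on this supply of ATP.

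Adult male C57BL/6J mice lacking *Nfil3* in all tissues (KO, a conditional allele recombined by Cre in germ cells) and wildtype (WT) littermates had one sciatic nerve cut and its ends joined. RNA came from whole L4 and L5 DRGs at day 2 or day 5 after the lesion, and controls were DRGs of the non-injured side, so the controls also came from operated animals, and the day of the controls is not given. There were 6 groups of 4 samples (WT control, WT day 2, WT day 5, KO control, KO day 2, KO day 5), measured on 12 arrays of 3 slides, with 2 samples of each group in Cy3 (replicates 1 and 2) and 2 in Cy5 (replicates 3 and 4). All values are log2 intensities after quantile normalization, a gene is represented by its brightest probe, and a change is a lesion group minus control, averaged over both genotypes unless a genotype is named. A gene was called when its limma adjusted p over all 41174 probes was under 0.05. The labels describe separate samples but not whether each came from its own animal, so the p-values measure the spread between these samples.

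Between 54.6% and 72.4% of probes were well above background in a sample, and samples of a group correlated at 0.952 or more over all probes. *Nfil3*, the targeted gene, measured 8.44 to 9.01 in WT controls and 10.34 to 11.09 in lesioned WT samples, against 2.82 to 6.23 in lesioned KO samples. The library labelled KO control replicate 4 goes against its label, since it measured 7.59 for *Nfil3* while the other KO controls measured 2.94 to 4.37, and a second label of it gives day 5. It was kept as labelled, and counts without it are given. *Sprr1a*, a gene induced in injured sensory neurons, ranged from 5.48 to 11.68 in controls and from 12.60 to 15.81 after the lesion, so some control libraries stood apart. The tissue is labelled DRG neurons, and the mean of 11 neuron markers was 13.08 to 13.97 in a sample, but Schwann cell markers (11.94 to 13.81) and macrophage markers (7.47 to 9.62) were also present. In such bulk RNA, fewer cells of a type and less RNA per cell cannot be told apart.

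The first question was whether the respiratory chain transcripts moved after nerve lesion. They were mostly lower, by modest amounts. At day 2, 28 of the 88 genes fell and 1 rose, beside 12.7% of all genes called lower and 9.48% called higher. Among the abundant genes these shares were 22.2% and 16.5%. At day 5, 29 members fell and 1 rose, beside 13% of all genes called lower and 10.2% called higher (23.9% and 17.7% of the abundant genes). The F test over both time points called 31 members, or 35.2%, beside 26.2% of all genes and 45% of the abundant genes. The share of members called lower was 31.8% at day 2 and 33% at day 5. The estimate was under 0 for 79 members at day 2, beside 52% of all genes, and for 76 at day 5, beside 53.8%. The median change of the members was -0.14 at day 2 and -0.17 at day 5, while that of all genes was -0.015 and -0.029. Among the genes called lower, 19 were called at both time points and 38 at either.

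**Figure D1:**
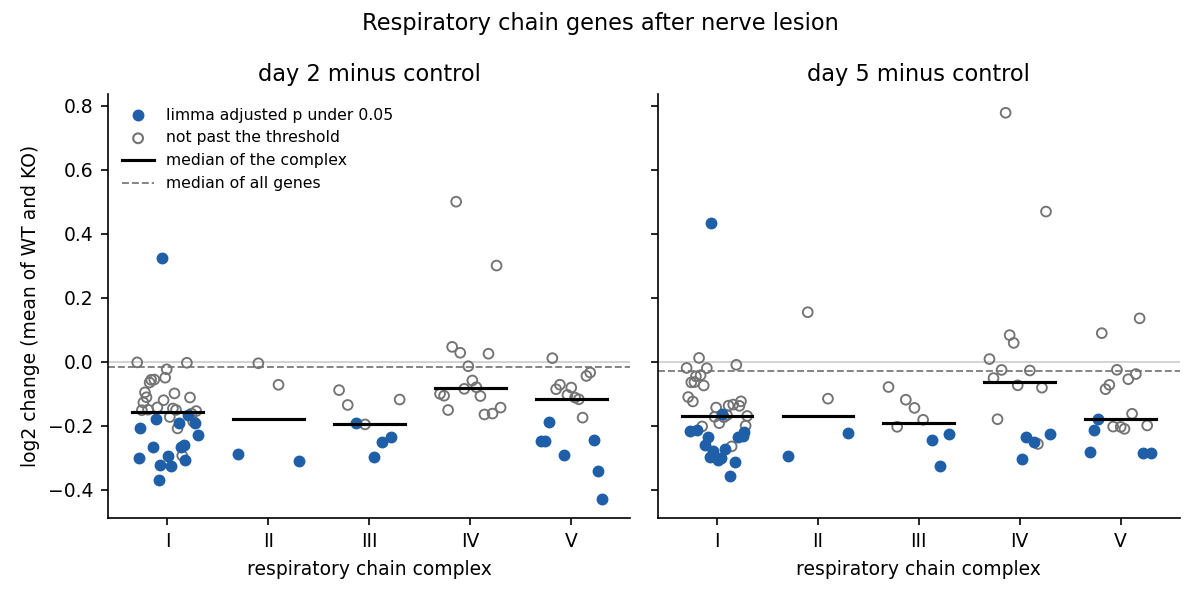
Change of each of the 85 genes well above background in at least 12 samples against control at day 2 and day 5 (y axis, log2, averaged over genotypes), by complex (x axis), with filled points for genes past a limma adjusted p of 0.05, a bar at the median of the points shown for each complex and a dashed line at the median of all genes. Most points lie just under 0 in every complex, and Ndufaf4 is the called gene above 0.

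Counts of called members depended on the samples kept and on how the arrays were grouped and scaled. With the slide as a block, 37 genes were lower at day 2 (27 of them among the 28) and 47 at day 5 (all 29 among them). Beside these stood 13.5% and 15.5% of all genes, and 24.5% and 28.3% of the abundant genes. The counts at day 5 then were 25 in complex I, 6 in complex III and 9 in complex V, from 15, 3 and 5. For the alternatives that follow, shares of all genes are not given, so their counts are not read against a background. Without the library labelled KO control replicate 4, 20 genes were lower at each time point and the F test called 17. Leaving out WT control replicate 2 or 3 gave 18 and 20 in the F test, and leaving out WT control replicate 3 or KO day 2 replicate 4 gave 18 lower genes at day 2. Without the 4 controls with the highest *Sprr1a* level, chosen after seeing the data, 9 and 8 genes were lower, and the medians were -0.12 and -0.15. With processed signals scaled to their 75th percentile 12 genes were lower and 1 higher at day 2, and 12 lower and 3 higher at day 5. With median scaling 7 and 9 were lower, and the medians stayed under 0 in both (-0.039 and -0.062, and -0.095 and -0.13). Within each slide and genotype that held both lesion and control samples, the member median was below 0, between -0.095 and -0.28. Within each dye and genotype it was between -0.10 and -0.27, except for KO day 2 in Cy3, where it was -0.0024 and 44 of the 88 genes were under 0.

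**Figure D2:**
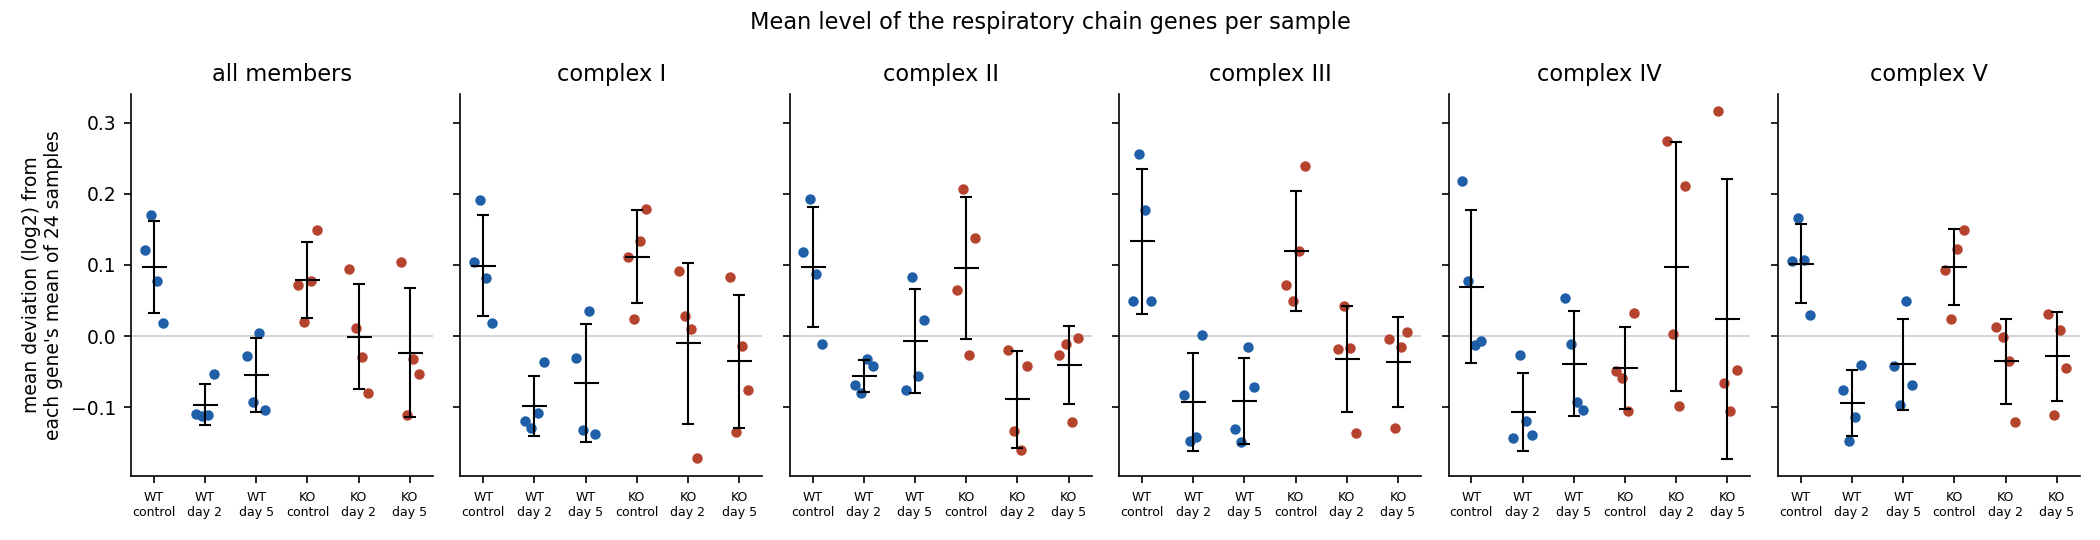
Mean deviation of the 85 genes well above background in at least 12 samples from their means over all samples (y axis, log2), for all of them and for each complex, in the 6 groups (x axis), with 1 point per sample and the mean and SD of each group (n = 4). Over all genes the controls have the highest means (0.097 in WT and 0.079 in KO), all lesioned WT samples lie below all controls, and 2 lesioned KO samples lie among them.

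As a mean over these 85 genes, WT samples stood at 0.097 ± 0.065 (SD, n = 4) in controls, -0.097 ± 0.029 at day 2 and -0.055 ± 0.052 at day 5, on the log2 scale relative to the mean of all samples. KO samples stood at 0.079 ± 0.053 in controls, -0.00079 ± 0.074 at day 2 and -0.023 ± 0.091 at day 5. All lesioned WT samples lay below all controls of both genotypes. Among the lesioned KO samples, day 2 replicate 1 (0.095) and day 5 replicate 1 (0.10) lay within the control range, and both were among the 4 samples with the highest skeletal muscle markers. The other lesioned sample of those 4, KO day 2 replicate 4, stood at -0.080, below all controls. The part of muscle RNA in these levels was not tested.

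In complex I, NADH dehydrogenase, 15 of 40 genes fell and 1 rose at each time point, with medians of -0.16 and -0.17. The genes lower at both time points were *Ndufc2*, *Ndufs3*, *Ndufb3*, *Ndufb5*, *Ndufab1*, *Ndufs5*, *Ndufv1*, *Ndufa11*, *Ndufaf2* and *Ndufaf3*. Of the 7 core subunits 3 fell at each time point, with *Ndufs3* and *Ndufv1* lower at both. Estimates of all 7 were under 0 at both time points. Among the 29 accessory subunits 10 fell at day 2 and 10 at day 5.

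*Ndufc2*, an accessory subunit of the membrane arm, had the largest fall at day 5. *Ndufc2* measured 14.51, 14.79, 14.50 and 14.44 in WT controls (replicates 1 to 4) and 14.54, 14.54, 14.47 and 14.66 in KO controls. At day 2 *Ndufc2* measured 14.15, 14.26, 14.35 and 14.24 in WT and 14.45, 14.42, 14.32 and 14.10 in KO. At day 5 *Ndufc2* measured 14.17, 14.21, 14.16 and 14.14 in WT and 14.32, 14.28, 14.08 and 14.22 in KO. All day 5 samples lay below all controls, and at day 2 only KO replicate 1, at 14.45, reached the control range. The change was -0.27 (SE 0.064, limma adjusted p = 0.00477) at day 2 and -0.36 (SE 0.064, limma adjusted p = 0.000295) at day 5.

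*Ndufs3*, a core subunit of the arm that carries the iron-sulfur clusters, fell by the same amount at both time points. *Ndufs3* measured 13.29, 13.29, 13.48 and 13.27 in WT controls (replicates 1 to 4) and 13.21, 13.38, 13.36 and 13.35 in KO controls. At day 2 *Ndufs3* measured 13.05, 12.97, 12.91 and 13.01 in WT and 13.08, 13.05, 13.16 and 12.95 in KO. At day 5 *Ndufs3* measured 13.00, 12.98, 13.11 and 13.03 in WT and 13.18, 12.87, 13.02 and 12.94 in KO. All lesioned samples at both time points lay below all controls. The change was -0.31 (SE 0.055, limma adjusted p = 0.000367) at day 2 and -0.31 (SE 0.055, limma adjusted p = 0.000247) at day 5. Its level fell by 19.2% at day 2 and fell by 19.5% at day 5. *Ndufs3* and *Atp5o* were the members for which all 8 day 2 samples lay below all 8 controls, beside 2.76% of all genes and 5.8% of the abundant genes. At day 5 this held for *Ndufs3*, *Ndufc2*, *Ndufs5*, *Ndufv1*, *Uqcr11* and *Atp5a1*, 6 of the 88, beside 6.12% of all genes and 13.2% of the abundant genes.

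The 4 assembly factors that the name rule includes build complex I but are not part of it, and they moved in both directions. *Ndufaf2* changed by -0.37 (SE 0.071, limma adjusted p = 0.000655) at day 2 and -0.23 (SE 0.071, limma adjusted p = 0.0194) at day 5. *Ndufaf3* changed by -0.32 (SE 0.093, limma adjusted p = 0.0165) and -0.30 (SE 0.093, limma adjusted p = 0.024). *Ndufaf1* was not called at either time point (-0.14 and -0.02). *Ndufaf4* was the one member gene called higher. *Ndufaf4* measured 9.85, 9.87, 9.79 and 9.65 in WT controls (replicates 1 to 4) and 9.91, 9.77, 9.76 and 9.81 in KO controls. At day 2 *Ndufaf4* measured 10.04, 10.12, 9.98 and 9.96 in WT and 10.36, 10.31, 10.21 and 10.04 in KO. At day 5 *Ndufaf4* measured 10.34, 10.09, 10.31 and 9.96 in WT and 10.44, 10.19, 10.40 and 10.16 in KO. All lesioned samples lay above all controls at both time points, which held for 3.77% of all genes at day 2 and 5.56% at day 5. The change was 0.32 (SE 0.069, limma adjusted p = 0.00177) at day 2 and 0.43 (SE 0.069, limma adjusted p = 8.66e-05) at day 5, or 25.2% and 35.0% higher. Of its 3 probes, 2 were called higher at day 5 and the third measured a change of -0.04.

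Several other complex I genes showed no call in either direction. *Ndufa6*, an accessory subunit, had the highest change of the subunits at day 5, at 0.01 (limma adjusted p = 0.952). *Ndufa1* and *Ndufs4* changed by -0.02 and -0.01. The other of the 2 *Ndufs4* probes changed by -0.42 at day 5 and was not called. *Ndufv3*, an accessory subunit of the NADH-binding module, fell at day 2 (-0.23) and was not called at day 5 (-0.17) by its brightest probe, while its other 2 probes were called lower at day 5, 1 of them at -0.57.

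**Figure D3:**
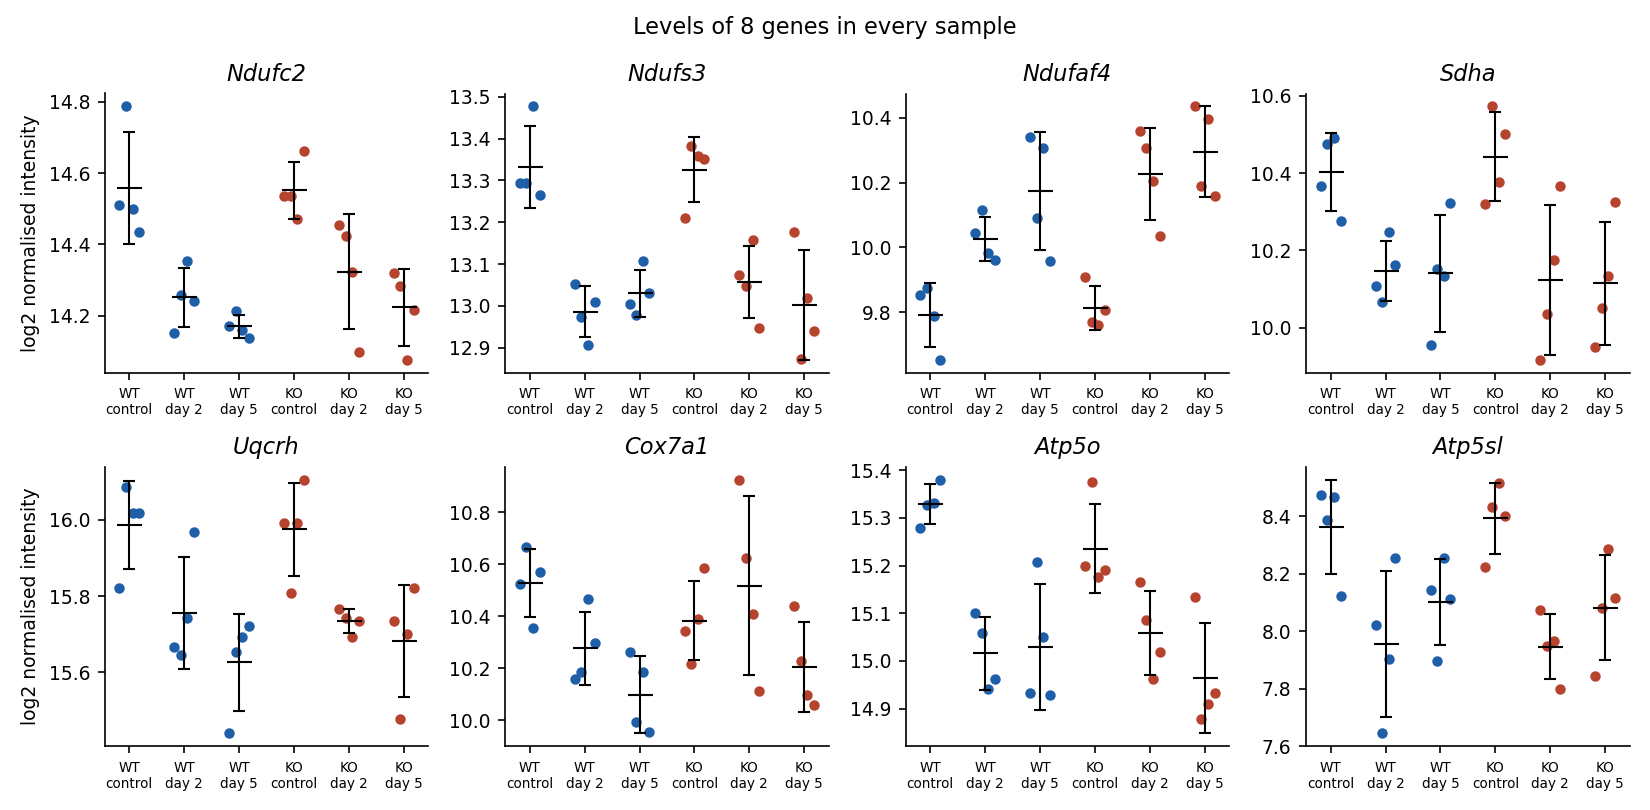
Level of 8 genes in each sample (y axis, log2 intensity), by group (x axis), with the mean and SD of each group (n = 4). All lesioned samples lie below all controls for Ndufs3 and above them for Ndufaf4. Those of Ndufc2 lie below all controls at day 5 and those of Atp5o at day 2. For the other genes and time points, lesioned samples pooled over genotypes overlap the controls. A single group can still lie below all controls, as Ndufc2 does in WT at day 2.

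Promoter sequences are given for the complex I genes with the largest fall at day 5 and the rise. A link between motif and direction was not tested. Windows of 300 bases, from 250 before to 50 after a gene's start, came from RefSeq (GRCm38.p6), and 74 of the 88 members matched one. Both strands were searched for NRF1 (GCGCATGCG), GABP (CCGGAAGT), YY1 (AAGATGGC), CRE (TGACGTCA) and NFIL3 (TTACGTAA), the first 3 being motifs of known regulators of nuclear genes for mitochondrial proteins. The 250 bases before the start of *Ndufc2*, at chr7:97399753-97400002 on the plus strand, held none of them. Those before *Ndufaf4*, at chr4:24897833-24898082 on the plus strand, held NRF1 on both strands, overlapping, shown in capitals.
Ndufc2: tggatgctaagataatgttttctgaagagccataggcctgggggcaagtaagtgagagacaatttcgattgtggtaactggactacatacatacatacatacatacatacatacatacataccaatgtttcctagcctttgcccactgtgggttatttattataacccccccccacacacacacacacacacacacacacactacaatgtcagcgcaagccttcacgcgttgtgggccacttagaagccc
Ndufaf4: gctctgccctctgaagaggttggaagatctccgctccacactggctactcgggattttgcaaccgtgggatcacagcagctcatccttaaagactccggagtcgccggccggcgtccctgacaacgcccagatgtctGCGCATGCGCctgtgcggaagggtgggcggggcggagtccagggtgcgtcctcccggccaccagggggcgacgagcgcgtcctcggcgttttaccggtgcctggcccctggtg

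NRF1 was found in 12.2% of the 74 members, beside 1.95% of the 27025 genes with a window. YY1 was found in 14.9% beside 3.19%, GABP in 6.76% beside 4.31%, and CRE in 5.41% beside 2.03%. NFIL3, the motif of the factor removed in the KO, was in none of the 74 windows and in 34 genes (0.126%) overall. Among the 27 matched members called lower at day 5, NRF1 was in 3.7% and YY1 in 7.41%, while among the other 47 they were in 17% and 19.1%. These shares rest on few genes and are descriptions of letters in a window. *Ndufa11*, called lower at both time points, also held NRF1 on both strands, overlapping, and *Ndufs3* held GABP.

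Complex II, succinate dehydrogenase, links the chain to the citric acid cycle and has 4 subunits, of which 2 fell at both time points. *Sdha*, the flavoprotein that oxidizes succinate, fell at both time points. *Sdha* measured 10.37, 10.48, 10.49 and 10.28 in WT controls (replicates 1 to 4) and 10.32, 10.57, 10.38 and 10.50 in KO controls. At day 2 *Sdha* measured 10.11, 10.07, 10.25 and 10.16 in WT and 9.92, 10.03, 10.17 and 10.37 in KO. At day 5 *Sdha* measured 9.95, 10.15, 10.13 and 10.32 in WT and 9.95, 10.05, 10.13 and 10.33 in KO. Lesioned samples were mostly below the controls, but KO replicate 4 at day 2 and replicate 4 of both genotypes at day 5 lay within the control range. The change was -0.29 (SE 0.075, limma adjusted p = 0.0085) at day 2 and -0.29 (SE 0.075, limma adjusted p = 0.00626) at day 5. *Sdhd*, a membrane anchor, changed by -0.31 (SE 0.074, limma adjusted p = 0.00473) at day 2 and -0.22 (SE 0.074, limma adjusted p = 0.0359) at day 5. The day 5 call of *Sdhd* was lost when any 1 of 10 of the 24 samples was left out and in 5 of 18 other alternatives, with a limma adjusted p between 0.0059 and 0.455 over all of them. *Sdhc*, the other anchor, changed by -0.12 at day 5 (limma adjusted p = 0.421).

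*Sdhb*, the iron-sulfur subunit, was not called. *Sdhb* measured 12.26, 12.28, 12.34 and 12.20 in WT controls (replicates 1 to 4) and 12.15, 12.23, 12.29 and 12.41 in KO controls. At day 2 *Sdhb* measured 12.21, 12.18, 12.25 and 12.57 in WT and 12.44, 12.03, 12.08 and 12.34 in KO. At day 5 *Sdhb* measured 12.37, 12.51, 12.45 and 12.46 in WT and 12.46, 12.31, 12.43 and 12.39 in KO. Over both genotypes the lesioned samples of each time point overlapped the controls, and those at day 5 lay in the upper part of the control range or above it. In WT all day 5 values lay above all WT controls, while in KO day 5 and control values overlapped. Its change at day 5 was 0.15 (SE 0.07, limma adjusted p = 0.133), and with processed signals it was 0.22 and called higher (limma adjusted p = 0.0332).

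In complex III, ubiquinol-cytochrome c reductase, 4 of 8 genes fell at day 2 (*Uqcrh*, *Uqcrfs1*, *Uqcrc2* and *Uqcrb*) and 3 at day 5 (*Uqcrh*, *Uqcrfs1* and *Uqcrq*). Estimates of all 8 genes were under 0 at both time points, with medians of -0.19 and -0.19. *Uqcrh*, the hinge protein that contacts cytochrome c1, had the largest fall at day 5. *Uqcrh* measured 15.82, 16.09, 16.02 and 16.02 in WT controls (replicates 1 to 4) and 15.99, 15.81, 15.99 and 16.10 in KO controls. At day 2 *Uqcrh* measured 15.67, 15.65, 15.74 and 15.97 in WT and 15.77, 15.74, 15.69 and 15.73 in KO. At day 5 *Uqcrh* measured 15.44, 15.65, 15.69 and 15.72 in WT and 15.73, 15.48, 15.70 and 15.82 in KO. Of the lesioned samples, WT replicate 4 at day 2 and KO replicate 4 at day 5 reached the control range, and the others lay below it. The change was -0.23 (SE 0.068, limma adjusted p = 0.0168) at day 2 and -0.32 (SE 0.068, limma adjusted p = 0.00126) at day 5. At day 5 its level fell by 20.2%. *Uqcrfs1*, the Rieske iron-sulfur protein and the single core subunit of this complex in the rule, changed by -0.25 (SE 0.075, limma adjusted p = 0.0203) at day 2 and -0.24 (SE 0.075, limma adjusted p = 0.0215) at day 5. Without the library labelled KO control replicate 4 the day 5 value was -0.22 and was no longer called (limma adjusted p = 0.0512, and between 0.00773 and 0.217 over its 42 alternatives). *Uqcrb* changed by -0.19 (SE 0.067, limma adjusted p = 0.049) at day 2 and by -0.12 at day 5, and the day 2 call was lost without the same library (-0.20, limma adjusted p = 0.0539, and between 0.0199 and 0.30 over the alternatives). With the slide as a block its day 5 change was -0.14 and was called (limma adjusted p = 0.0476).

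*Uqcr10*, a small accessory subunit, had the smallest change at day 5 in this complex. *Uqcr10* measured 14.98, 15.49, 15.21 and 15.23 in WT controls (replicates 1 to 4) and 14.92, 15.17, 14.98 and 15.34 in KO controls. At day 2 *Uqcr10* measured 15.12, 15.00, 15.08 and 15.08 in WT and 15.31, 15.26, 14.81 and 14.96 in KO. At day 5 *Uqcr10* measured 14.97, 15.12, 15.02 and 15.09 in WT and 15.16, 15.20, 14.95 and 15.18 in KO. The groups overlapped throughout, WT control replicate 2 being the highest. The change at day 5 was -0.08 (SE 0.086, limma adjusted p = 0.612).

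The promoters of the 2 complex III genes called lower at both time points are shown for comparison, each with the motif found in capitals. *Uqcrh*, at chr4:116075071-116075320 on the minus strand, held GABP in reverse orientation close to the start, and *Uqcrfs1*, at chr13:30545317-30545566 on the minus strand, held CRE.
Uqcrh: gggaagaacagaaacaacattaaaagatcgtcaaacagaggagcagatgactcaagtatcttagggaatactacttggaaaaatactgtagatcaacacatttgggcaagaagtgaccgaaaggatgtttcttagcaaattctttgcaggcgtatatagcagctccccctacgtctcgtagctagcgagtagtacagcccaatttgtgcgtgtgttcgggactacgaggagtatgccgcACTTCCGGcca
Uqcrfs1: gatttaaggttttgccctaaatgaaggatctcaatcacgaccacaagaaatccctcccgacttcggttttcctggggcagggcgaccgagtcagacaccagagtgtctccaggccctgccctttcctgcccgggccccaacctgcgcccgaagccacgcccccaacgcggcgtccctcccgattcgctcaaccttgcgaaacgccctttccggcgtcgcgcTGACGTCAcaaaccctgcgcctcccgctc

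Complex IV, cytochrome c oxidase, is the last complex before oxygen. None of its 19 genes was called at day 2, when 4 had an unadjusted p under 0.05 by limma, and 4 fell at day 5. The share of all genes at that unadjusted threshold is not given. With the slide as a block 3 genes were called lower at day 2, namely *Cox8a* (limma adjusted p = 0.0368), *Cox5b* (limma adjusted p = 0.037) and *Cox7b* (limma adjusted p = 0.041), and 5 at day 5, *Cox5b* being the one added (limma adjusted p = 0.0188). The medians without the block were -0.080 and -0.051. The 4 genes lower at day 5 were *Cox7b* (-0.25, limma adjusted p = 0.009), *Cox7a2* (-0.23), *Ndufa4* (-0.22), which is named for complex I but belongs to complex IV, and *Cox7a1*. *Cox4i1*, the large regulatory subunit, changed by 0.01, *Cox6a1* by -0.03 and *Cox5a* by -0.05. *Cox6a1* measured 17.21 to 17.59 in controls and at day 2, and 17.21 to 17.49 at day 5. The neuron marker *Uchl1* took some of the same values, since quantile normalization fixes the levels of the brightest ranks. This limits how far a change of *Cox6a1* can show. That complexes differed in their response was not tested. *Cox7c*, a small subunit, split by slide, with a highest value of 11.20 on slide 1 and 11.45 on slide 2 and a lowest value of 12.19 on slide 3. Its change of -0.26 at day 5 (SE 0.33, limma adjusted p = 0.68) became -0.08 (SE 0.085, limma adjusted p = 0.551) with the slide as a block.

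Complex IV also has subunits with tissue-specific isoforms, and 7 of these were members. *Cox7b2*, *Cox4i2* and *Cox8c*, isoforms known from testis or lung, were well above background in 1, 2 and 0 of the 24 samples, so no fold is given. *Cox6b2*, a testis isoform, changed by 0.06 at day 5 (limma adjusted p = 0.831). *Cox7a1*, the isoform of heart and skeletal muscle, fell at day 5. *Cox7a1* measured 10.53, 10.67, 10.35 and 10.57 in WT controls (replicates 1 to 4) and 10.34, 10.22, 10.39 and 10.58 in KO controls. At day 2 *Cox7a1* measured 10.16, 10.18, 10.47 and 10.30 in WT and 10.92, 10.62, 10.41 and 10.11 in KO. At day 5 *Cox7a1* measured 10.26, 9.99, 10.18 and 9.95 in WT and 10.44, 10.23, 10.10 and 10.06 in KO. At day 5, 5 of 8 samples lay below all controls and KO replicate 1 lay highest. The change was -0.06 at day 2 and -0.30 (SE 0.1, limma adjusted p = 0.033) at day 5. Without the library labelled KO control replicate 4 it was -0.27 and not called (limma adjusted p = 0.0731, and between 0.0034 and 0.761 over the alternatives).

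*Cox6a2*, another heart and muscle isoform well above background, had estimates above 0. *Cox6a2* measured 8.53, 6.57, 6.48 and 6.83 in WT controls (replicates 1 to 4) and 6.53, 6.40, 6.36 and 6.83 in KO controls. At day 2 *Cox6a2* measured 6.68, 6.60, 6.81 and 7.09 in WT and 7.94, 7.45, 7.14 and 8.82 in KO. At day 5 *Cox6a2* measured 7.91, 7.13, 7.26 and 7.14 in WT and 9.05, 7.29, 7.67 and 7.31 in KO. WT control replicate 1 stood far above the other controls, which spanned 6.36 to 6.83, and all day 5 samples lay above those 7. Over all samples the change was 0.50 at day 2 (limma adjusted p = 0.282) and 0.78 (SE 0.3, limma adjusted p = 0.0757) at day 5, so neither was called. *Cox8b*, the muscle isoform of the smallest subunit, was well above background in 19 of 24 samples. *Cox8b* measured 7.14, 4.99, 4.77 and 4.34 in WT controls (replicates 1 to 4) and 4.56, 4.52, 4.51 and 4.77 in KO controls. At day 2 *Cox8b* measured 4.09, 4.95, 4.83 and 4.14 in WT and 6.47, 4.62, 5.11 and 7.80 in KO. At day 5 *Cox8b* measured 6.07, 5.20, 4.66 and 4.26 in WT and 7.98, 5.15, 4.22 and 5.80 in KO. WT control replicate 1, KO day 2 replicates 1 and 4, and KO day 5 replicate 1 stood highest (6.47 to 7.98), against 4.09 to 6.07 in the other samples. Its change at day 5 was 0.47 (limma adjusted p = 0.62).

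The samples high in both isoforms were also those high in skeletal muscle markers. The mean of 10 muscle markers was 9.13 in KO day 5 replicate 1, 8.41 in KO day 2 replicate 4, 8.12 in WT control replicate 1 and 6.96 in KO day 2 replicate 1, against 4.99 to 6.47 in the other 20 samples. Of the defining markers, *Ckm* was well above background in 7 of 24 samples and *Mb* in 4. Without WT control replicate 1 alone, and with KO day 5 replicate 1 kept, *Cox6a2* changed by 1.01 at day 5 (limma adjusted p = 0.00687). This was the highest of the 24 changes with 1 sample left out, and the 1 that was called. The lowest of the 24 was 0.57, and the limma adjusted p reached 0.168. Without the 4 samples highest in muscle markers, an alternative chosen after seeing the data, *Cox6a2* changed by 0.47 (limma adjusted p = 0.0427) at day 2. At day 5 it changed by 0.81 (SE 0.135, limma adjusted p = 0.00031), and *Cox8b* by 0.41 (limma adjusted p = 0.374). In the remaining samples all day 5 values of *Cox6a2*, 7.13 to 7.91, lay above all remaining controls, and the highest, WT replicate 1, had the highest remaining muscle marker mean (6.47). Over its 42 alternatives the day 5 change of *Cox6a2* was between 0.52 and 1.03, with a limma adjusted p between 0.00031 and 0.330. *Cox7a1* changed by -0.34 at day 5 without them (limma adjusted p = 0.0064). The part of muscle RNA in the values over all samples was not tested.

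**Figure D4:**
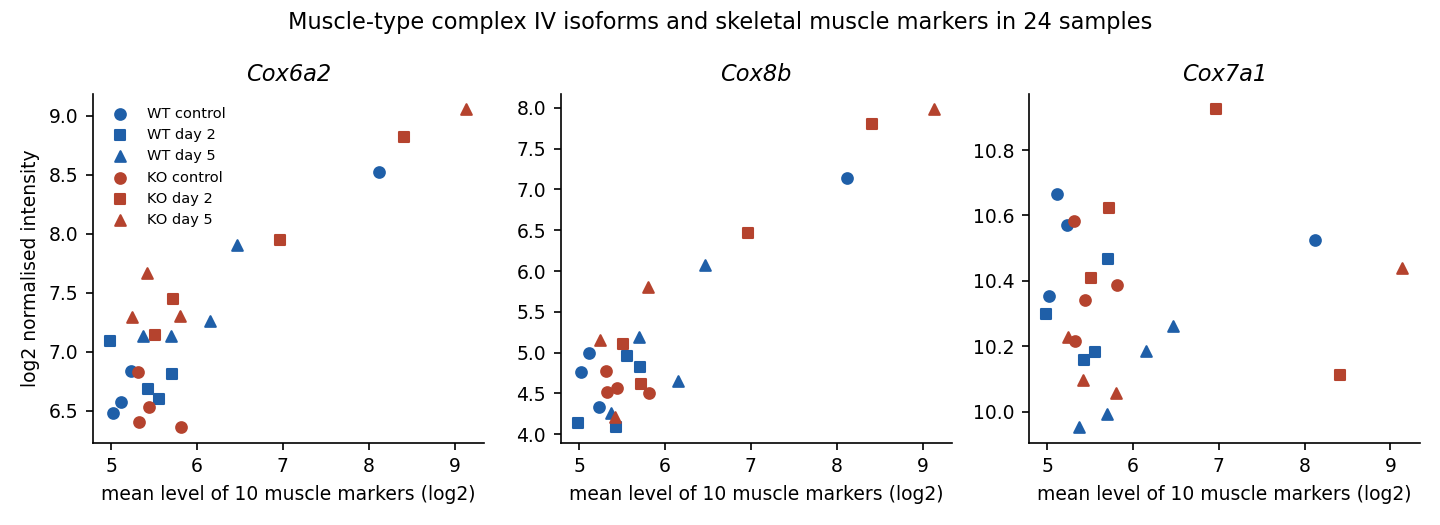
Level of Cox6a2, Cox8b and Cox7a1 (log2 intensity, y axis) against the mean of 10 skeletal muscle markers (log2 intensity, x axis), 1 point per sample. The 4 samples with a marker mean from 6.96 to 9.13 hold the highest Cox8b values, and below them day 5 samples lie above controls for Cox6a2.

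In complex V, ATP synthase, 7 of 17 genes fell at day 2 and 5 at day 5, with medians of -0.12 and -0.18. Of the 5 core subunits of the catalytic F1 part, *Atp5a1* (-0.25 and -0.28), *Atp5b* (-0.25 and -0.21) and *Atp5c1* (-0.19 and -0.18) fell at both time points. Of the 4 *Atp5b* probes, 1 was called lower at day 5, and the highest probe changed by 0.025, whereas both *Atp5a1* probes were called. *Atp5d* and *Atp5e* were not called, with changes of 0.09 and -0.09 at day 5. *Atp5o*, the subunit that joins F1 to the stalk, changed by -0.25 (SE 0.058, limma adjusted p = 0.00402) at day 2 and -0.29 (SE 0.058, limma adjusted p = 0.000919) at day 5. Among the 3 genes for the identical ring subunit, *Atp5g1* fell at day 2 (-0.29), while *Atp5g2* and *Atp5g3* were not called.

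*Atp5sl*, a protein named for its likeness to a coupling factor of the synthase and not a subunit of it, had the lowest change of this complex. *Atp5sl* measured 8.48, 8.39, 8.47 and 8.12 in WT controls (replicates 1 to 4) and 8.22, 8.43, 8.52 and 8.40 in KO controls. At day 2 *Atp5sl* measured 8.02, 7.64, 7.90 and 8.25 in WT and 8.07, 7.95, 7.97 and 7.80 in KO. At day 5 *Atp5sl* measured 8.14, 7.90, 8.26 and 8.11 in WT and 7.84, 8.08, 8.28 and 8.12 in KO. At day 2 the values lay below all controls except in WT replicate 4, and at day 5 they overlapped the lower controls. The change was -0.43 (SE 0.089, limma adjusted p = 0.0015) at day 2, the lowest of the 88 genes, and -0.29 (SE 0.089, limma adjusted p = 0.0241) at day 5. Of its 2 probes, 1 was called lower at day 5, and the other changed by -0.07 there.

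*Atp5l*, subunit g of the membrane part, had the highest day 5 estimate in this complex. *Atp5l* measured 14.08, 14.04, 13.74 and 13.80 in WT controls (replicates 1 to 4) and 14.06, 13.66, 14.13 and 14.09 in KO controls. At day 2 *Atp5l* measured 13.73, 13.80, 13.94 and 13.90 in WT and 14.10, 13.94, 14.14 and 13.79 in KO. At day 5 *Atp5l* measured 14.20, 13.87, 14.24 and 13.90 in WT and 14.23, 13.93, 14.27 and 14.05 in KO. All groups overlapped, and its change at day 5 was 0.14 (SE 0.089, limma adjusted p = 0.342).

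Grouped by role over all complexes, 9 of 17 core subunits fell at each time point, with medians of -0.19 and -0.21. Among 57 accessory subunits 15 and 16 fell, with medians of -0.13 and -0.16. Among the 7 isoforms, 0 were called at day 2 and 1 at day 5. No test of the difference between roles was made. Between day 5 and day 2, 0 members were called, beside 3.28% of all genes. An unadjusted p under 0.05 was found for 5 members, and the share of all genes at that threshold is not given. Of the 29 genes with several probes, 22 had all probes on the same side of 0 at day 5, and none had probes called in opposite directions. Some genes called lower at day 5 had 1 called probe among several, as did *Atp5b*, *Atp5sl*, *Ndufab1*, *Uqcrq* and *Cox7a2*. For others, such as *Atp5a1* and *Uqcrh*, every probe was called.

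The second question was whether the loss of *Nfil3* altered these transcripts. No member was called between KO and WT. In controls 0 were called by limma beside 0% of all genes, at day 2 0 beside 0.0146%, and at day 5 0 beside 0.0109%. At an unadjusted p under 0.05 there were 0, 2 (*Cox6a2* and *Atp5e*, the epsilon subunit of F1) and 0 members. Shares of all genes at this unadjusted threshold are not given, here or for the interaction below, so these counts are not read against a background. The median KO minus WT difference was -0.0054 in controls, 0.075 at day 2 and 0.035 at day 5. Its sign varied with the batch. Within Cy3 it was -0.097, 0.18 and 0.056, and within Cy5 0.082, -0.0052 and 0.010. At day 2 it was 0.14 on slide 2 and -0.035 on slide 3. Groups were not balanced over slides, with WT day 5 on slides 1 and 3 and KO day 5 on slides 1 and 2. Of the abundant genes, 42.3% had a KO minus WT estimate under 0 at day 2 and 40.3% at day 5. The 95% interval of a gene's difference extended by a median of 0.22 to each side over the 85 genes, which covers 1 gene before adjustment, and a call over all probes needed a larger difference. *Nfil3* itself, with means of 8.65 in WT and 4.67 in KO controls, was not called in controls (limma adjusted p = 1.00), so a count of 0 is no measure of likeness. That KO mean and its spread include the library labelled KO control replicate 4 (7.59, beside 2.94 to 4.37 in the other KO controls). No *Nfil3* test without that library is given. The time*genotype interaction also called 0 members beside 0% of all genes, and 1 member, *Cox6a2*, had an unadjusted p under 0.05 (0.0458, limma adjusted p = 1.00).

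Lesion changes were then taken within each genotype. These share no samples between WT and KO, whereas day 2 and day 5 of a genotype share its controls. In WT, 9 members fell and 0 rose at day 2, beside 5.77% and 5.23% of all genes and 10.9% of the abundant genes called lower, with a member median of -0.19. At day 5 in WT, 7 fell and 1 rose, beside 7.45% and 6.41% (14.6% of the abundant genes lower), with a median of -0.18. In KO, 3 fell and 1 rose at day 2, beside 6.27% and 5.5% (10.1% of the abundant genes lower), with a median of -0.10. At day 5 in KO, 5 fell and 1 rose, beside 6.64% and 6.06% (12.8% of the abundant genes lower), with a median of -0.15. The members called lower were 10.2%, 7.95%, 3.41% and 5.68% of the 88, each below the share of the abundant genes. Without the library labelled KO control replicate 4, 0 fell and 1 rose in KO at day 2, and 1 fell and 1 rose at day 5. In all samples, *Ndufs3* and *Ndufb5*, an accessory subunit of complex I, fell in all 4 of these comparisons, and *Ndufaf4* rose in all of them except WT day 2. Leaving out replicate 1, 2 or 3 of the WT controls or of the WT day 2 samples brought the WT day 2 count of called members to between 3 and 5. For WT day 5 the count came to between 2 and 5 on omitting control replicates 2 or 3, or day 5 replicates 1, 2 or 4. The KO day 2 count became 2 without KO control replicate 2 or 3, 7 without KO day 5 replicate 1 and 10 without KO day 2 replicate 3. The KO day 5 count became 3 without KO control replicate 3 and 2 without KO day 5 replicate 3.

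At day 5, 4 genes fell in both genotypes (*Ndufc2*, *Ndufs3*, *Ndufb5* and *Atp5o*), which is 4 of the 7 in WT and 4 of the 5 in KO. At day 2, 3 genes fell in both (*Ndufs3*, *Ndufb5* and *Atp5sl*), out of 9 in WT and 3 in KO. Without the library labelled KO control replicate 4, *Ndufs3* at day 5 was the 1 gene lower in both genotypes, and 0 were at day 2. At day 2 the estimates were under 0 in both genotypes for 69 members, over 0 in both for 5 and on different sides for 14. At day 5 these numbers were 73, 8 and 7. The difference in counts between genotypes was not tested. With the slide as a block the 4 counts of called members were 14 in WT and 13 in KO at day 2, and 19 in WT and 21 in KO at day 5. Shares of all genes within a genotype are not given with this block or with samples left out. Those counts are therefore not read against a background. Averaged over genotypes, the block also raised the share of abundant genes called lower. It was 24.5% at day 2 and 28.3% at day 5, from 22.2% and 23.9%.

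**Figure D5:**
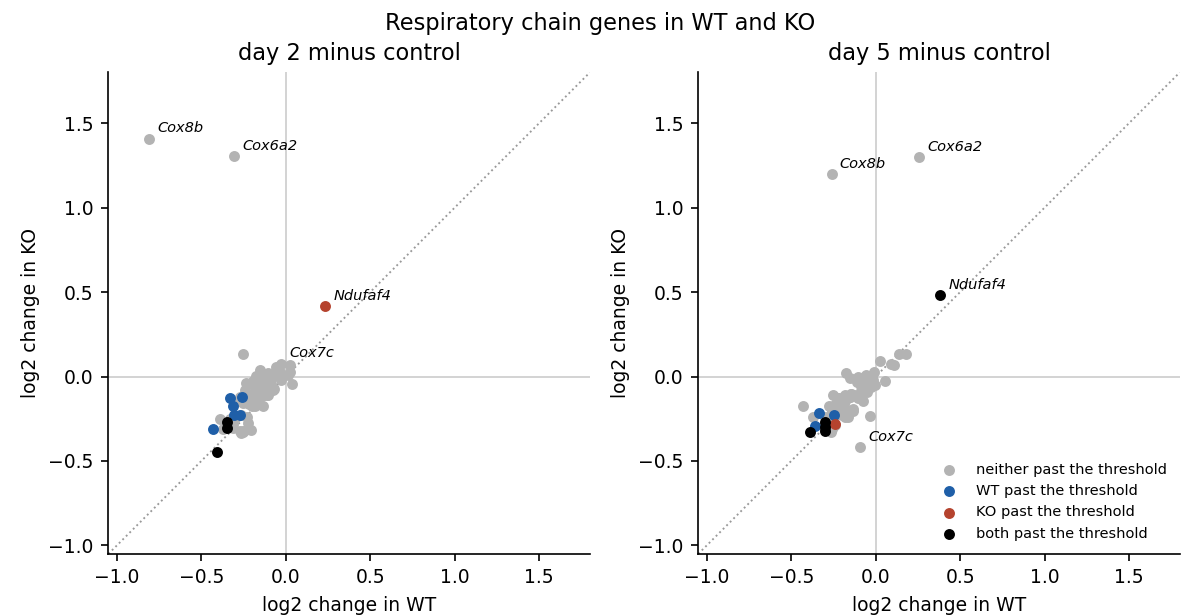
Lesion change in KO (y axis) against that in WT (x axis) for each of the 85 genes well above background in at least 12 samples (log2, lesion minus control), at day 2 and day 5, colored by the genotype in which a gene passed the threshold. For most genes both changes are under 0, and Cox6a2 and Cox8b lie apart at both time points.

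Other genes of mitochondrial energy metabolism were read from lists on the same arrays. Of the mitochondrially encoded subunits, 4 of 26 listed were on the array and 0 were called at either time point. ND4 of complex I, CYTB of complex III, COX2 of complex IV and ATP6 of complex V changed by -0.20, -0.16, -0.24 and -0.09 at day 5. Among 25 assembly factors outside the name rule, 6 fell and 1 rose at day 2, and 6 fell and 2 rose at day 5. At each time point 24% were lower, near the 22.2% and 23.9% of the abundant genes. *Atpaf1*, which assembles the F1 part of ATP synthase, changed by -0.68 and -0.46, and *Bcs1l*, which inserts the Rieske protein into complex III, by -0.54 and -0.39. *Cox19*, a copper-related factor of complex IV assembly, rose by 0.26 and 0.34. Around cytochrome c, *Hccs*, its heme lyase, was lower at day 5 (-0.27), and it was the 1 gene called of 4.

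Upstream of the chain, 8 of 17 citric acid cycle genes fell at day 2 and 7 at day 5, and none rose, with medians of -0.17 and -0.15. These were 47.1% and 41.2% of the list, beside 22.2% and 23.9% of the abundant genes and 12.7% and 13% of all genes. *Dlat*, a subunit of pyruvate dehydrogenase, changed by -0.29 and -0.36. Among 18 carriers, porins and import genes 6 fell at day 2, and 6 fell and 1 rose at day 5, so that 33.3% were lower at each beside the same shares. *Slc25a4* and *Slc25a5*, the ADP/ATP exchangers, changed by -0.47 and -0.37 at day 5. Glycolysis was mixed, with 7 of 17 genes lower and 2 higher at day 2, and 8 lower and 3 higher at day 5. The lower genes were 41.2% and 47.1% of the list, beside 22.2% and 23.9% of the abundant genes. *Aldoc* (-0.72) and *Ldhb* (-0.58) were lower at day 5, whereas *Pgk1* (0.54) and *Hk2* (0.45) were higher.

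Of 16 regulators of mitochondrial genes, 6 fell and 2 rose at day 2, and 5 fell and 2 rose at day 5, so that 37.5% and 31.2% were lower, beside 22.2% and 23.9% of the abundant genes and 12.7% and 13% of all genes. The coactivators *Ppargc1a* (-0.54 and -0.27) and *Ppargc1b* (-0.64 and -0.40) fell at both time points, and *Polg2*, the accessory subunit of the mitochondrial DNA polymerase, did so too (-0.53 and -0.42). *Esrra*, a nuclear receptor that works with them, was called at day 2 (-0.40) and not at day 5 (-0.26). *Pprc1*, a related coactivator, rose (0.41 and 0.33), as did *Creb1* (0.37 and 0.37). *Tfam*, *Nrf1* and *Gabpa* were not called. *Yy1* changed by -0.38 at day 5.

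Marker transcripts of several cell types were read on the same arrays. Of 11 neuron markers, 8 fell at day 2 and 8 at day 5, and *Tubb3* rose at day 5 (0.43). Their mean was 13.67 to 13.97 in controls, 13.08 to 13.57 at day 2 and 13.16 to 13.40 at day 5, and their median changes were -0.55 and -0.62. All 8 macrophage markers rose at day 5 and 3 at day 2, with means of 7.47 to 8.21 in controls, 7.74 to 8.85 at day 2 and 9.19 to 9.62 at day 5. Satellite glia markers gave 2 lower and 2 higher at day 2, and 1 lower and 2 higher at day 5, of 5. Of 5 Schwann cell markers 1 rose at day 2 and 0 were called at day 5. Of the 6 adipose markers 1 fell and 0 rose at day 2, and 1 fell and 3 rose at day 5. One of the 3, *Ucp1* of brown fat, was well above background in 4 of the 24 samples, so no fold is given for it. Erythroid markers, 3 genes, were not called. The part of these cell types in the respiratory chain changes was not tested.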

How the data were processed

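The authors extracted Agilent 4x44K arrays with Feature Extraction, and the deposited files hold, per spot and channel, foreground and background intensity without normalization (45018 spots, 43379 of them not controls). Following the methods of the study, mean foreground and median background went into the Edwards correction, and quantile normalization and log2 transformation followed over all 24 channels. Outlier spots were left out (417 probe values missing), no spot was saturated, and spots of a probe were averaged. Group means of all 24 samples were fitted with lmFit and eBayes in limma 3.58.1 (R 4.3.3, statmod 1.5.0, data.table version 1.17.8), with Benjamini-Hochberg adjustment over 41174 probes. A gene is its brightest probe. The scripts were tested on simulated data.

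The members, gene lists and markers were chosen with earlier results of these data known. Genes named with per-sample values are the 2 highest and 2 lowest day 5 changes per complex, all of complex II, the isoforms, the assembly factors past the F test and the 3 smallest interaction p-values, with values for at most 12. Other genes in the text were picked after their values were seen, most to spell out small counts. The number of arrays limits the precision. Alternatives covered the background, scaling, filters, probes, blocks, dye and samples. Samples were grouped by title and source name. Same-numbered samples were not treated as pairs, since their deviations correlated at a median of 0.070 over 60 pairs, all within a dye. Differently numbered samples of the same dye correlated at a median of 0.048 over 60 pairs. Which control and lesion samples shared an animal is not given, so such a pairing could not be used. A probe may also bind transcripts of closely related genes or pseudogenes, which was not examined.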

Additional observations from a re-analysis of the deposited data

Results flagged for a closer look

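Among 144 groups of 4 samples looked at for 23 named genes and the mean member levels, 11 had a lone sample far from the other 3, and chance gives about 1 in 20. In controls these were *Ndufs3* in WT control replicate 3 (13.48) and in KO control replicate 1 (13.21), and, in KO control replicate 2, *Cox7c* (12.28), *Atp5o* (15.37), *Atp5l* (13.66) and *Ndufaf3* (10.13). At day 2 they were *Uqcrfs1* in WT replicate 3 (12.54), *Ndufaf3* in WT replicate 4 (10.16) and the mean member level in WT replicate 4 (13.29). At day 5 they were *Sdhd* in WT replicate 2 (13.16) and *Cox6a2* in WT replicate 1 (7.91). KO control replicate 2 is the KO control of slide 3, where all *Cox7c* values were high.

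At day 2, taken against the mean of the genotype's controls, *Cox8b* and *Cox6a2* moved in opposite directions in WT and KO. This held in 2 of 46 pairs of gene and day looked at. For *Cox6a2* the highest control, 8.53, was WT control replicate 1, and the WT day 2 values overlapped the other WT controls. The WT change minus the KO change was -2.21 for *Cox8b* and -1.61 for *Cox6a2*, and over both time points the interaction gave a limma adjusted p of 1.00 for each (unadjusted 0.121 and 0.0458). Without the 4 samples highest in skeletal muscle markers, 1 of them a WT control and 2 of them KO day 2 samples, the day 2 differences (KO minus WT) became 0.47 and 0.59, from 2.21 and 1.61.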

How the results depend on the processing

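Of 24 called results for named genes, 896 of 1008 alternative values kept direction and call, 112 kept the direction only and 0 reversed. In every alternative 0 members were called for KO minus WT in controls, at day 2 and at day 5 and for the time*genotype interaction. Counts are given in the order F test, lower at day 2, lower at day 5, then WT day 2, WT day 5, KO day 2 and KO day 5 (both directions), which were 31, 28, 29, 9, 8, 4 and 6. They were 3, 3, 0, 0, 0, 0 and 0 in the 12 samples of arrays whose channels shared a time point (day 5 median -0.079, 0 higher at day 2), 8, 7, 9, 0, 0, 1 and 0 with median scaling (0 higher at day 2), and 12, 12, 12, 4, 2, 4 and 2 with processed signals (medians -0.039 and -0.062, 3 higher at day 5). Added after seeing the data, they were 10, 9, 8, 1, 1, 1 and 2 without the 4 controls highest in *Sprr1a*, and 27, 14 and 32 without the 4 samples highest in muscle markers, with 2 higher at each time point and 1 called in KO day 2. With the slide as a block they were 45, 37, 47, 14, 19, 13 and 21. Other settings moved the counts within a genotype. WT day 5 became 16 without background correction, 15 with normexp, 14 with the array as a random block (correlation 0.27) and 5 with loess. KO day 2 became 10 without background correction, with normexp, with the filter for probes well above background in 4 samples and with an intensity trend, 8 with dye as a covariate, and 7 with the array as a random block, the array partner as a block, averaged probes or any probe of a gene. KO day 5 became 13 without background correction and with normexp, and 10 with the filter. At day 5, 2 genes were higher with the filter and with the trend. With averaged probes 0 were higher at day 2, and day 5 minus day 2 called 1 there and with any probe. The causes were not tested. Apart from those given for the slide as a block, shares of all genes are not given for the alternatives. Their counts are therefore not read against a background.

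Replicate numbers name samples only, and 11 of 24 samples correlated best with a sample of their own number. With the replicate number as a block 35 members passed the F test, 29 fell at day 2, 31 fell and 2 rose at day 5, and KO day 2 gave 10.

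Leaving out each sample in turn gave 17 to 32 in the F test, 18 to 28 lower at day 2, 20 to 32 lower at day 5 and 1 to 2 higher at day 5. WT day 2 gave 3 to 11, WT day 5 2 to 12, KO day 2 1 to 10 and KO day 5 2 to 8. Member medians stayed between -0.16 and -0.12 at day 2 and between -0.18 and -0.15 at day 5.

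Estimates near 0 changed sign. The median of all genes at day 2 was 0.063 with processed signals. At day 5, *Uqcr10* was 0.065 with processed signals and 0.0022 without the controls highest in *Sprr1a*. *Ndufa6* was -0.013 with median scaling, -0.021 with the array as a random block, -0.055 without the samples highest in muscle markers and -0.041 to 0.042 when single samples were left out. *Cox6b2* was -0.0039 with median scaling and -0.017 to 0.13 when single samples were left out. *Cox6a2* at day 5 passed the threshold with processed signals, the filter, the trend and the replicate block (limma adjusted p between 0.0348 and 0.0485), *Sdhb* at day 5 with processed signals (0.22) and *Uqcrb* at day 5 with the slide as a block (-0.14). Precision is set by 24 samples on 3 slides, and for genes near background also by the signal.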
